A study of Homo sapiens with 24 samples.

Results

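The genes described here lie in a pair of chromosome stretches whose members as a group counted higher in WNK2- than in WT T/C-28a2 chondrocytes: the tip of the short arm of chromosome 5 up to 32.11 Mb and chromosome 14 from 54.39 to 74.02 Mb, on GRCh38. The stretches were chosen by the very difference between WNK2- and WT libraries of this dataset, so their higher level in WNK2- cells is a description and carries no test. Members are protein-coding genes that start inside either stretch and had at least 10 reads in at least 4 of the 24 libraries, without HIF1A and without symbols beginning NDUF, SDH, RPL, RPS or KCN. This gave 155 genes, 50 on chromosome 5 and 105 on chromosome 14, of 13185 protein-coding genes past the same minimum in the whole dataset. A further 68 protein-coding genes of the stretches stayed under the minimum, 33 on chromosome 5 and 35 on chromosome 14, and 39 protein-coding genes there, the proteasome subunit gene PSMA3 among them, are listed at 0 in every library. Some members reached the minimum only with their WNK2- libraries counted, among them TERT, SLC9A3, SLC8A3, SLC35F4, LRRC9 and RGS6. Their higher level there was in part set by the rule, and they count in the medians and lists given further on.

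RNA-seq read counts of 24 libraries were analysed, 4 in each of 6 groups. T/C-28a2 is an immortalised human chondrocyte line, WT cells are the unedited line, and WNK2- cells derive from a clone in which CRISPR/Cas9 removed exon 2 of the kinase gene WNK2. WNK2 trans cells are WT cells that received a plasmid with the WT WNK2 sequence and grew for 48 hours before treatment, and WT and WNK2- cells received no plasmid. Sor libraries come from cells kept for 7 days with 100 mM sorbitol, which makes the medium hyperosmotic, and Ctr libraries from cells in isotonic medium. Because all 8 WNK2- libraries come from clonal cells, loss of WNK2 and other properties of that clone cannot be told apart. The labels call the libraries of a group replicates without saying that they came from separate cultures, so p-values measure the spread between these libraries. Totals ran from 14153002 to 25664619 counted reads per library, with 18578564 to 25664619 in the WNK2- libraries. WNK2 itself had 1217 to 2568 reads in the libraries labelled WT Ctr and 266 to 314 reads in those labelled WT Sor. WNK2- libraries held 440 to 501 reads of it without sorbitol and 322 to 503 with sorbitol. The libraries labelled WNK2 trans Ctr held 163 to 290 WNK2 reads, which goes against their label, and those labelled WNK2 trans Sor 2237 to 3739. The study reports no significant change of WNK2 with sorbitol or with transfection, and the low WNK2 reads of WT Sor go against that too. Signs of differences that involve WT Sor or either isotonic group of WT genotype depend on those labels being right. Of 12 chondrocyte markers, SOX9 is listed at 0 in every library, COL2A1 had 5 to 224 reads and HAPLN1 258 to 2765. The 6 fibroblast markers were mixed. COL1A1 had 15306 to 104059 reads, COL3A1 1034 to 23198 and PDGFRB 821 to 6676, but COL1A2 had 0 to 16, DCN 0 to 33 and LUM 0 to 325. The summed normalised count of the chondrocyte list was 452 to 539 in the WNK2- libraries and 1519 to 2944 in the other 16. HAPLN1 weighed most in this sum, with a median of 1014 reads per library. The next highest median was 83, for COL11A2, so the sum speaks mainly for HAPLN1.

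Genes that sit side by side on a chromosome usually serve unrelated functions and are switched by separate promoters. The members are therefore ordered here both by position and by role. Chromosome 5p holds the telomerase gene TERT, the cytoskeletal regulator TRIO and the mineralisation gene ANKH; chromosome 14q holds the actin cross-linker ACTN1 and the matrix gene SMOC1.

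To show what lies before the genes that carry the contrasts described here, the 150 bases before the annotated starts of 3 members are given from RefSeq (GRCh38.p14), 5′ to 3′ on the strand of the gene, with CG dinucleotides in capitals. TRIO stood higher in WNK2- cells, its neighbour ANKH did not, and RHOJ answered to sorbitol in both genotypes. The RefSeq starts used for the stretches differ from the GENCODE gene bounds given further on. By those bounds the stretch of RHOJ lies inside the gene. That of ANKH overlaps the first bases of its gene, and that of TRIO ends before its gene starts.
TRIO, chr5:14143192-14143341, plus strand: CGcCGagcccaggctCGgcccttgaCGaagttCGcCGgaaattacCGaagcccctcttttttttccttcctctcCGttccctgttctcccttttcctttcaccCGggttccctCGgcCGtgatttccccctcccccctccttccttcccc
ANKH, chr5:14871779-14871928, minus strand: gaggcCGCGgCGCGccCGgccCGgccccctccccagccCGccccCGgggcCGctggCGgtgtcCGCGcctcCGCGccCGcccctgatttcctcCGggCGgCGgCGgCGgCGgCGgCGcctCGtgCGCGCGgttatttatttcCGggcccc
RHOJ, chr14:63204293-63204442, plus strand: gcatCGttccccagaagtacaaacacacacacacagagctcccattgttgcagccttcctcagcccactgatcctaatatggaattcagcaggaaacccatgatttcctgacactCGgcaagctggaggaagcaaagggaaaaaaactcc
The stretch before TRIO holds 11 CG dinucleotides, that before ANKH 28 and that before RHOJ 2. Of 35116 such stretches in the RefSeq table, 39.8% hold at least 11, 1.18% at least 28 and 77.1% at least 2. The letters TGGAAA, the constant start of the tonicity-responsive element, occur in none of the 3 on either strand and in 10.3% of all stretches. Of the 155 members, 128 have a stretch in the table, with a median of 15 CG dinucleotides against 7 over all.

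The first comparison sets WNK2- against WT cells in isotonic medium and asks how far the shift runs through each stretch. Members on chromosome 5 were higher by a median of 0.92 on the log2 scale (1.89-fold) and those on chromosome 14 by 0.43 (1.35-fold), while the median of all 16600 tested genes was 0.00. In sorbitol the medians were 0.97 (1.96-fold) and 0.50 (1.42-fold), against 0.02 over all genes. Counts were fitted with edgeR's quasi-likelihood model over all 6 groups, with adjustment by the Benjamini-Hochberg method over all tested genes, and 153 members passed the filter on low counts (49 and 104); CTNND2 and RDH12 did not. In isotonic medium 89 of 153 members were called higher at an adjusted p under 0.05, where 20.7% of all genes were, and 11 lower, where 21.5% were. In sorbitol 96 were called higher (23.7% of all genes) and 16 lower (22.7%). These calls come from the contrast that picked the stretches and support nothing by themselves. In both media 81 members were called higher and 11 lower, none was called in opposite directions, 28 were called in 1 medium and 33 in neither. The difference was above 0 in both media for 114 members.

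The shift was seen in every WNK2- library. For each library, the log2 CPM of each member was set against its mean over the 16 libraries of WT genotype, and the median over members was taken. On chromosome 5 this value lay between 0.83 and 0.88 in WNK2- Ctr and between 0.96 and 0.97 in WNK2- Sor, and between -0.17 and 0.15 in the other 16. On chromosome 14 it lay between 0.32 and 0.54 in the WNK2- libraries and between -0.20 and 0.17 in the others. The genotypes did not overlap on either chromosome. Genes on the rest of chromosome 5 gave -0.01 to 0.14 in WNK2- libraries and -0.09 to 0.11 in the others. The rest of chromosome 14 gave 0.16 to 0.24 in WNK2- libraries and -0.05 to 0.07 in the others, so that the genotypes did not overlap there either.

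**Figure D1:**
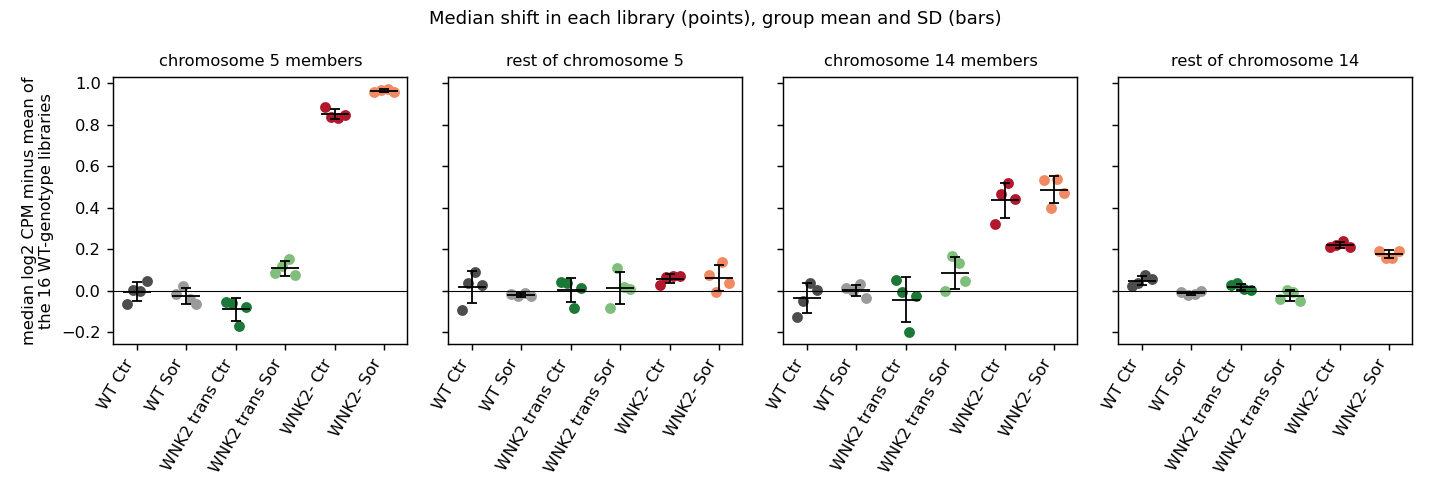
Median over genes of log2 CPM minus the mean of the 16 WT-genotype libraries (vertical axis, log2 units) in each of the 24 libraries (points), by group (horizontal axis), with the group mean and SD as bars. Chromosome 5 members sit between 0.83 and 0.97 in the 8 WNK2- libraries, above all others, and the rest of chromosome 5 stays near 0.

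Set against the transfected groups, whose libraries are not in the contrast that chose the stretches, the WNK2- medians were similar. WNK2- Ctr stood above WNK2 trans Ctr by 0.89 on chromosome 5 and 0.49 on chromosome 14, and WNK2- Sor above WNK2 trans Sor by 0.77 and 0.38. The WNK2- libraries are the same in these comparisons, so they are given as values only. All 8 WNK2- libraries lay above all 16 libraries of WT genotype for 48 members, 26 on chromosome 5 and 22 on chromosome 14, where 4.45% of all tested genes did. They lay below all 16 for 6 members (4.77% of all tested genes), namely OTULINL, CDH9, CDH6, PELI2, SMOC1 and TTC9. TERT, which met the count minimum only through its WNK2- libraries, is among the 48.

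Neither stretch moved as a block. On chromosome 5 the median log2 difference in isotonic medium was 1.31 over the 17 members within the first 4 Mb, 0.81 over the next 9, 0.46 over 8 between 8 and 12 Mb and 0.19 over 6 between 12 and 16 Mb. It was 1.19 over the 4 members between 16 and 20 Mb and -0.45 over the 5 beyond. The values in sorbitol were 1.30, 0.97, 0.76, 0.21, 1.52 and -0.38. On chromosome 14 the windows of 4 Mb had medians of 0.30, 0.59, 0.48, 0.35 and 0.44 in isotonic medium and of 0.38, 0.90, 0.49, 0.41 and 0.48 in sorbitol, each window with 15 to 28 members. So the chromosome 5 shift was large near the tip and again around MYO10 and BASP1, with lower values between, while the chromosome 14 shift was lower and more even.

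**Figure D2:**
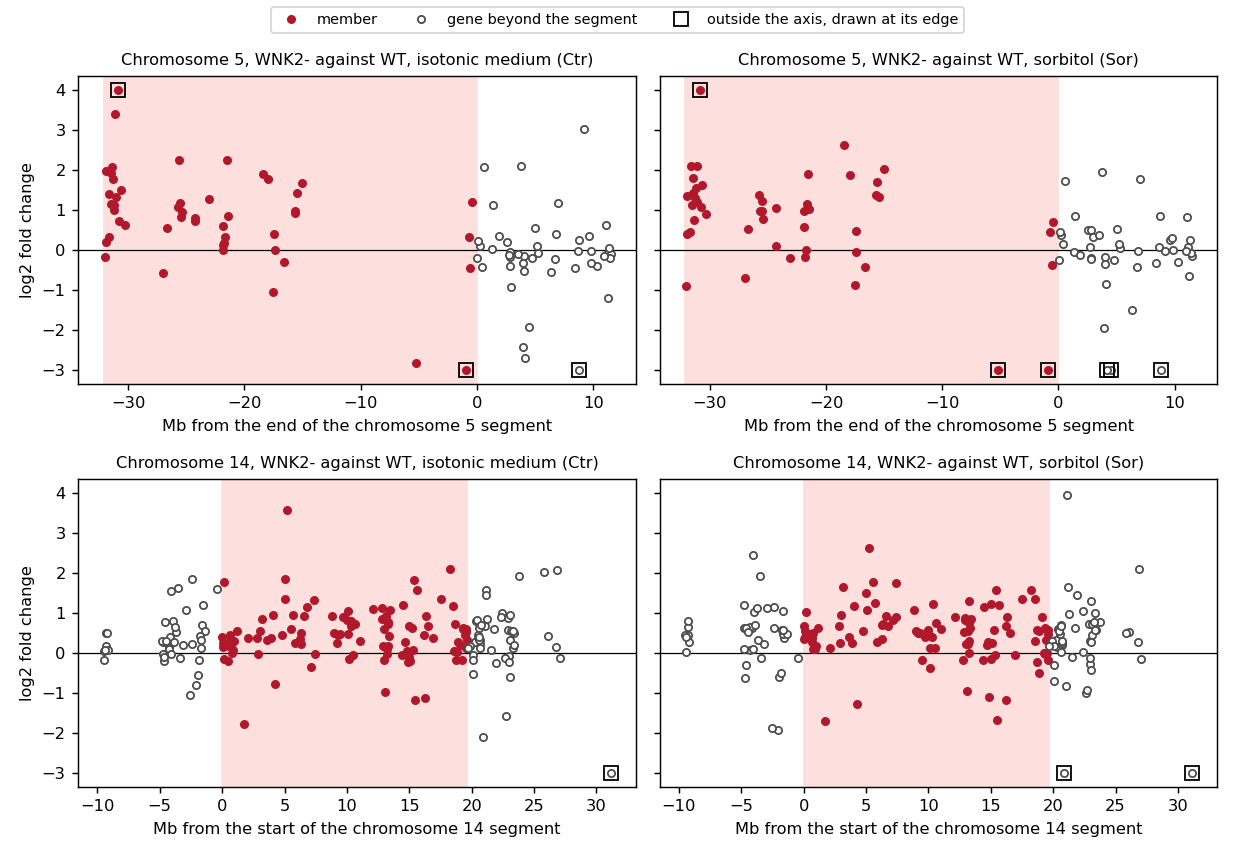
Log2 fold change of WNK2- against WT (vertical axis) for members (filled) and for protein-coding genes up to 12 Mb beyond the stretches (open), against the distance in Mb from the end of the chromosome 5 stretch or from the start of the chromosome 14 stretch (shaded), in isotonic medium (left) and sorbitol (right); values beyond -3 or 4 are drawn at the edge in squares. Most filled points lie above 0 on both chromosomes, and on chromosome 14 many open points do as well.

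The ends of the stretches were not sharp. On chromosome 5 the last 2 members inside were C5orf22 (-0.45 in isotonic medium, -0.38 in sorbitol) and PDZD2 (1.20 and 0.70), and the first 2 genes beyond were GOLPH3 (-0.19 and -0.25) and MTMR12 (0.23 and 0.43). At the start of the chromosome 14 stretch the first members CDKN3 (0.41 and 0.68) and CNIH1 (0.14 and 0.33) faced BMP4 (1.59 and -0.13) and DDHD1 (0.56 and 0.47) outside. At its end ENTPD5 (0.60 and 0.47) and BBOF1 (0.32 and -0.18) faced LIN52 (0.11 and 0.18) and ABCD4 (0.17 and 0.29). The 4 Mb just before the chromosome 14 stretch had a median of 0.42 over 21 genes and the 4 Mb just after it 0.32 over 42 genes in isotonic medium. In sorbitol these were 0.48 and 0.31. Further out, isotonic medians were 0.07 over 7 genes (42.39 to 46.39 Mb) and 0.21 over 12 (46.39 to 50.39 Mb). They were 1.17 over 6 genes (78.02 to 82.02 Mb) and -5.19 for 1 gene beyond. The sorbitol values of these further windows were 0.44, 0.57, 0.50 and -4.14. Some windows outside thus reached medians found inside. Beyond the chromosome 5 end the first 4 Mb had a median of -0.08 over 18 genes in isotonic medium and 0.23 in sorbitol. Non-coding genes inside the stretches showed the same direction: their median in isotonic medium was 0.77 over 18 genes on chromosome 5 and 0.79 over 32 on chromosome 14. In sorbitol it was 0.42 and 0.83. Non-coding genes outside the stretches were not summarised apart, so these values have no background of their own kind.

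The median shift did not rise or fall steadily with level, and the classes of level were not compared by a test. With chromosome 5 members divided by mean level into 3 classes of 16 or 17, the median log2 difference in isotonic medium was 1.39 in the lowest class, 0.35 in the middle and 1.00 in the highest. On chromosome 14 it was 0.37, 0.44 and 0.41. The lowest classes are shaped by the count minimum, which scarce genes such as TERT and SLC9A3 passed only through WNK2- libraries.

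By role, 111 members fall into 10 lists of 9 to 15 tested genes each. The counts given for each list are to be read beside the background of 20.7% of genes called higher and 21.5% lower in isotonic medium and 23.7% and 22.7% in sorbitol, and beside the members as a whole, with 58.2% and 7.19% in isotonic medium and 62.7% and 10.5% in sorbitol. No difference between lists was tested.

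Among regulators of the cytoskeleton, TRIO, a guanine nucleotide exchange factor for small GTPases (ENSG00000038382, chromosome 5, 14143702 to 14532128), showed the shift plainly. The normalised read counts of TRIO were 5773, 5284, 7674 and 8479.9 in WT Ctr, 6833, 7086, 6726 and 6543 in WT Sor, 20411, 23737, 23888 and 24778 in WNK2- Ctr and 25847, 24329.5, 23011 and 25493 in WNK2- Sor. In WNK2 trans Ctr they were 7109, 6496, 4310.0 and 6112, and in WNK2 trans Sor 8829.9, 12090.0, 12671 and 11774. All 8 WNK2- libraries stood above every other library, and WNK2 trans Sor stood above WT Sor. The WNK2- minus WT difference was 1.77 (standard error 0.14) in isotonic medium and 1.86 (0.14) in sorbitol on the log2 scale. BASP1, a membrane-bound protein of growing cell edges (ENSG00000176788, chromosome 5, 17065598 to 17276843), had 2145 ± 630.3 normalised reads (SD, n = 4) in WT Ctr, 1879.7 ± 127 in WT Sor, 6806 ± 689.7 in WNK2- Ctr and 7599 ± 834 in WNK2- Sor. MYO10, the unconventional myosin of filopodia, had 1163 ± 305, 1568 ± 49, 3118 ± 417 and 3932 ± 211 in the same order. These 3 genes lie between 14143702 and 17276843 on chromosome 5, and their WNK2- libraries overlapped no other library.

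ACTN1, which cross-links actin filaments at adhesions (ENSG00000072110, chromosome 14, 68874143 to 68979440), is a member on chromosome 14. ACTN1 had normalised read counts of 17114, 15581, 14519 and 17167 in WT Ctr, 17159.7, 17187, 17091 and 17620.3 in WT Sor, 39457, 36507, 35047 and 36064 in WNK2- Ctr and 37498, 40050.1, 36429.9 and 39663 in WNK2- Sor. The transfected cells gave 15361, 14301, 15754 and 15641 in isotonic medium (WNK2 trans Ctr) and 20618, 18619, 20894 and 20952 in sorbitol (WNK2 trans Sor). The WNK2- libraries held more than any library of the other groups, with log2 differences from WT of 1.19 (standard error 0.07) and 1.15 (0.07). Of 15 cytoskeleton and adhesion members tested, 10 were called higher in WNK2- cells in isotonic medium and 9 in sorbitol, with medians of 0.66 and 0.54, and the same 2 cadherins were lower.

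The cadherins of chromosome 5 went the other way. CDH6, a cell adhesion cadherin near the end of the stretch (ENSG00000113361, chromosome 5, 31193750 to 31329146), had 89, 138, 149 and 100 reads in WT Ctr, 215, 173, 237 and 208 in WT Sor, 262, 391, 219 and 218 in WNK2 trans Ctr and 89, 149, 78 and 121 in WNK2 trans Sor. It had 0, 0, 1 and 0 reads in WNK2- Ctr and 3, 0, 1 and 1 in WNK2- Sor, near 0 throughout. CDH9 was low everywhere, with 6 to 57 reads in the 16 libraries of WT genotype and 1 to 7 in the WNK2- libraries.

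Of 9 ion and solute transport members tested, 4 were called higher in isotonic medium and 5 in sorbitol and none lower, with medians of 0.91 and 1.19, so that the share called higher was below that of all members and above that of all genes. SLC12A7, the potassium-chloride cotransporter KCC4, which belongs to the cotransporter family that WNK kinases regulate (ENSG00000113504, chromosome 5, 1050376 to 1112035), was among them. By library, SLC12A7 gave normalised read counts of 1651, 1041, 1426 and 1738 in WT Ctr, 1529, 1585, 1531 and 1495 in WT Sor, 3732, 3513, 3465 and 3806 in WNK2- Ctr and 3459, 3867, 3132 and 3521 in WNK2- Sor. WNK2 trans Ctr libraries held 1199, 1145, 1212 and 1289, and WNK2 trans Sor libraries 1384, 957, 1367 and 1491. WNK2- libraries stood clear of all others in both media, with log2 differences of 1.31 (standard error 0.13) and 1.19 (0.13). It differed little between the media: sorbitol gave a log2 change of 0.07 in WT and -0.05 in WNK2- cells, and neither passed the threshold (edgeR adjusted p = 0.734 and 0.833). In the same list SLC9A3, SLC8A3, SLC35F4 and SLC10A1 were scarce, with 0 to 36 reads in each library of WT genotype. All of these but SLC10A1 met the count minimum only through WNK2- libraries, and the medians of the list rest partly on them.

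ANKH, the membrane protein that controls pyrophosphate outside the cell and thereby mineral deposition (ENSG00000154122, chromosome 5, 14704800 to 14871785), starts less than 1 Mb from TRIO but did not share the shift. The normalised read counts of ANKH were 1883, 2457, 1921 and 1997 in WT Ctr, 1842, 1884, 1729.9 and 1817 in WT Sor, 1987, 2143, 2018 and 2014 in WNK2- Ctr and 1778, 1699.9, 1772 and 1699 in WNK2- Sor. In WNK2 trans Ctr they were 2763, 2689.9, 2693 and 2581, and in WNK2 trans Sor 1357, 1434, 1664 and 1584. WT and WNK2- libraries overlapped in both media, and the log2 differences were -0.02 (standard error 0.08) and -0.07 (0.08). OTULINL, which lies between the 2 genes, was lower in WNK2- cells, with 304 ± 69.6 and 146 ± 11.7 normalised reads in isotonic medium and 353 ± 12.9 and 190.3 ± 15.5 in sorbitol. The deubiquitinase OTULIN beside it was higher, by 0.40 and 0.48 on the log2 scale. Opposite values thus stood within a stretch shorter than 1 Mb.

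**Figure D3:**
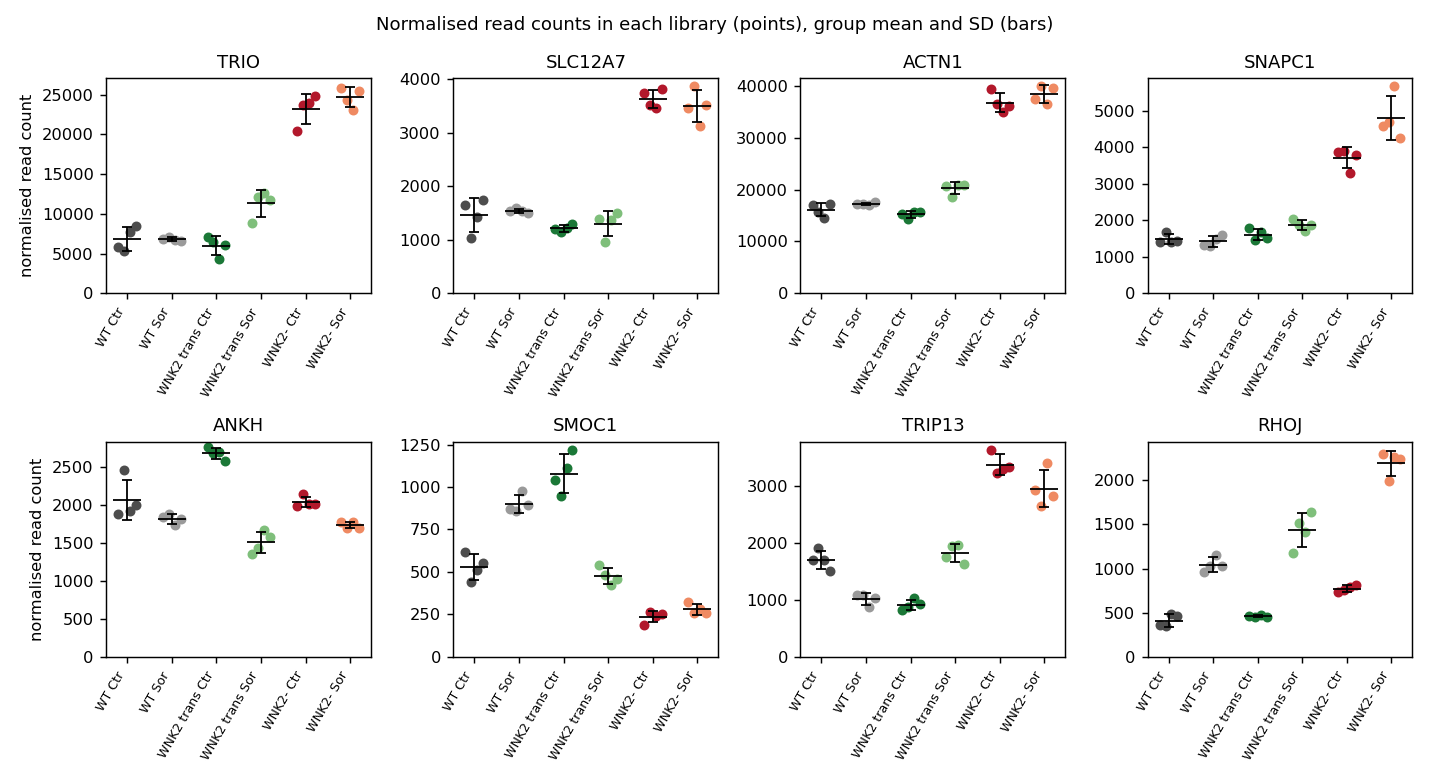
Normalised read counts (vertical axis, starting at 0) of 8 members in each library (points) of the 6 groups (horizontal axis), with group mean and SD as bars. TRIO, SLC12A7, ACTN1 and SNAPC1 stand highest in the 8 WNK2- libraries, ANKH does not, SMOC1 stands lowest there, and RHOJ is higher in every Sor group than in its Ctr group.

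Members of the telomere, cell cycle and DNA repair list stood higher in WNK2- cells in 7 of 10 cases in isotonic medium and 9 of 10 in sorbitol, with none lower and medians of 0.72 and 0.79. TERT, the catalytic subunit of telomerase, is scarce in these cells. It had 47, 53, 46 and 57 reads in WNK2- Ctr and 63, 61, 48 and 44 in WNK2- Sor, and 0 to 8 reads in each of the other 16 libraries, so that no fold change is given. TERT thus met the count minimum only through its WNK2- libraries, and its contrast supports nothing. TRIP13, an ATPase of the spindle checkpoint and of meiotic recombination (ENSG00000071539, chromosome 5, 892643 to 919357), overlaps BRD9 on the opposite strand, and the sources used here do not state whether strand was used in counting. TRIP13 had normalised read counts of 1693, 1905, 1699.5 and 1503 in WT Ctr, 1089.9, 1078, 872 and 1024 in WT Sor, 3636, 3232, 3303 and 3330.3 in WNK2- Ctr and 2924, 2645, 3407 and 2824 in WNK2- Sor. The transfected cells gave 826, 865, 1031 and 924 in isotonic medium (WNK2 trans Ctr) and 1757, 1939.7, 1967 and 1636 in sorbitol (WNK2 trans Sor). The WNK2- libraries stood above all others, and WT Sor and WNK2 trans Ctr were the lowest groups. BRD9, a bromodomain subunit of a SWI/SNF chromatin remodeller, differed by 1.11 and 1.30 on the log2 scale.

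Of the RNA processing and transcription machinery, 11 of 13 members were called higher in each medium and none lower, with medians of 0.63 and 0.76. SNAPC1, a subunit of the complex that starts small nuclear RNA transcription (ENSG00000023608, chromosome 14, 61762357 to 61796428), is among them. By library, SNAPC1 gave normalised read counts of 1404, 1686, 1416 and 1438 in WT Ctr, 1319.6, 1295, 1479 and 1606 in WT Sor, 3883, 3898, 3299.8 and 3793 in WNK2- Ctr and 4601, 4706, 5675 and 4263 in WNK2- Sor. WNK2 trans Ctr libraries held 1786, 1453, 1675 and 1516, and WNK2 trans Sor libraries 2044, 1881, 1707 and 1877. Both WNK2- groups stood above the rest. EIF2S1, the alpha subunit of translation initiation factor eIF2, had 4157 ± 727 normalised reads in WT Ctr, 3382 ± 114 in WT Sor, 6281 ± 236 in WNK2- Ctr and 6162 ± 351 in WNK2- Sor. DROSHA, the nuclear microRNA processing nuclease near the far end of the chromosome 5 stretch, differed by only 0.31 (standard error 0.08) and 0.45 (0.08). ZFP36L1, which promotes decay of AU-rich mRNA, showed -0.06 and -0.18.

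Transcription factor and chromatin members were called higher in 9 of 11 cases in isotonic medium and 7 in sorbitol, and none lower. DPF3, a chromatin remodeller subunit (ENSG00000205683, chromosome 14, 72619296 to 72894116), had 301 ± 33.8 normalised reads in WT Ctr, 428 ± 39.6 in WT Sor, 1289.7 ± 108 in WNK2- Ctr and 1277 ± 82.6 in WNK2- Sor. MAX, the partner of MYC, differed by 0.71 and 0.73 on the log2 scale. Metabolic and mitochondrial members were called higher in 7 of 12 cases in isotonic medium and 8 in sorbitol, with none lower. LPCAT1, which remodels phosphatidylcholine, showed 1.49 and 1.62 there. Autophagy and vesicle traffic members were called higher in 6 and 8 of 11 cases, with none lower.

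Of 9 tested members of the matrix, mineral and glycan list, 2 were called higher and 3 lower in isotonic medium, and 1 higher and 5 lower in sorbitol, with medians of -0.02 and -0.50. Chaperone and ubiquitin members were called higher in 5 of 11 cases in isotonic medium and 6 in sorbitol, and lower in 1 and 3, with medians of 0.17 and 0.20. Signalling members were called higher in 7 of 11 cases and lower in 2 in each medium, with medians of 0.48 and 0.56. In the matrix list, SMOC1, a secreted calcium-binding matrix protein that modulates BMP signalling (ENSG00000198732, chromosome 14, 69854131 to 70032366), was lower. The normalised read counts of SMOC1 were 617, 438, 509.5 and 555 in WT Ctr, 869, 857, 978 and 895 in WT Sor, 189, 263, 241 and 249 in WNK2- Ctr and 325, 258, 279 and 257 in WNK2- Sor. In WNK2 trans Ctr they were 1041, 946, 1114 and 1216, and in WNK2 trans Sor 538, 483, 422 and 460.0. No WNK2- library reached the lowest other library. GALNT16, which starts O-linked glycosylation, and PAPLN, a matrix proteoglycan, differed by -1.12 and -0.50 on the log2 scale in sorbitol and by -0.23 and 0.02 in isotonic medium. FUT8, the core fucosyltransferase, was higher by 0.28 and 0.59. DACT1, a modulator of WNT signalling outside this list, was lower, with 141 ± 32.5 and 82.6 ± 3.79 normalised reads in isotonic medium. The chondrocyte marker sum, which speaks mainly for HAPLN1, was lower in the same WNK2- libraries. The summed normalised count of the fibroblast list, with 5 of 6 markers past the filter, was 49163 to 55567 in WNK2- Ctr and 51324 to 73721 in WT Ctr, and 17774 to 21437 in WNK2- Sor and 68385 to 72968 in WT Sor. WNK2 trans Sor, of WT genotype, gave 20437 to 34483, which overlaps WNK2- Sor, and WNK2 trans Ctr gave 101830.2 to 123539.6. COL1A1 weighed most in the fibroblast sum, with a median of 48766 reads per library against 5144 for COL3A1, the next highest. In sorbitol the blood list (2 of 4 markers) summed to 48.3 to 58.4 in WNK2- and 165 to 242 in WT libraries, and the endothelial list (3 of 3) to 604 to 779.9 and 1089 to 1229. In WNK2 trans Sor these lists summed to 69.3 to 118 and 1813 to 1942. All libraries come from the T/C-28a2 line, so the sums describe the listed genes and not separate cell types. The part of these sums in the values was not tested. In bulk RNA, a change in some cells and a change in all cells cannot be told apart. NUMB, an inhibitor of NOTCH signalling, differed by 0.27 and 0.56.

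**Figure D4:**
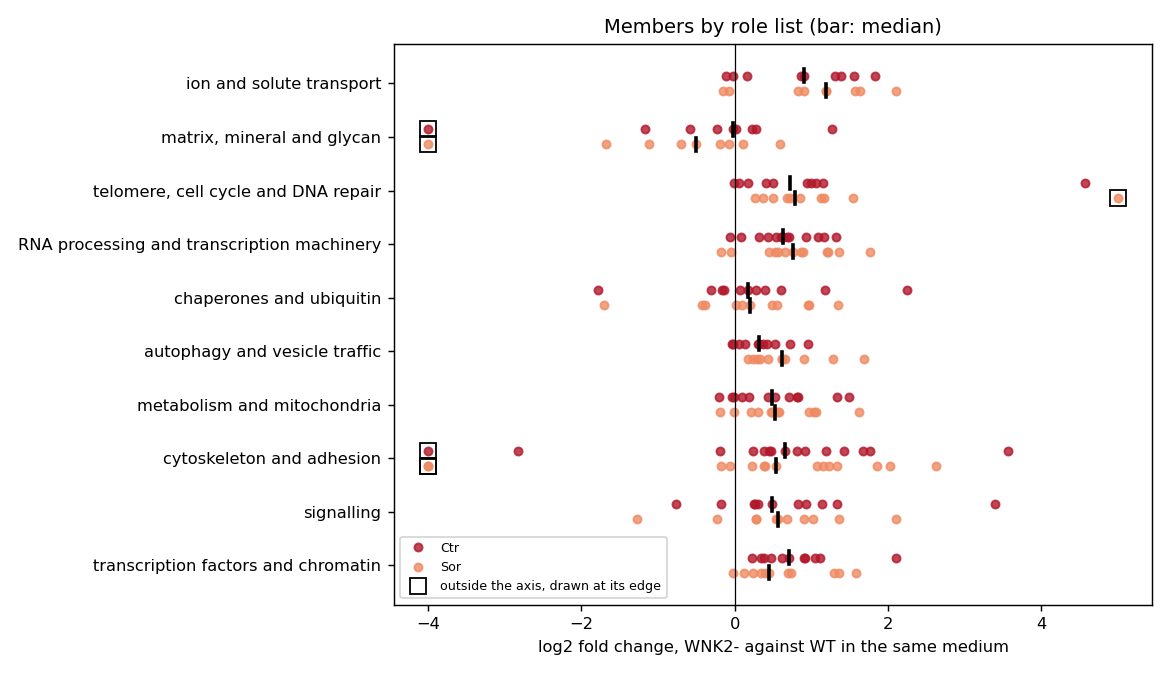
Log2 fold change of WNK2- against WT (horizontal axis) of the tested members of 10 role lists (rows), in isotonic medium (Ctr) and sorbitol (Sor), with the median of each list as a bar and values beyond the axis drawn at its edge in squares. Medians lie above 0 in both media in 9 lists, and matrix, mineral and glycan members lie at -0.02 and -0.50.

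Several members encode subunits of complexes whose other subunits are spread over the genome, which allows the shift of members to be set beside that of their partners. Of 60 partners tested in 9 complexes with a member, 8 (13.3%) were called higher in WNK2- cells in isotonic medium and 17 (28.3%) lower, with a median of -0.14, where 20.7% and 21.5% of all genes were. In sorbitol 16 (26.7%) were higher and 14 (23.3%) lower, with a median of -0.09, where 23.7% and 22.7% of all genes were. CCT5 of the CCT chaperonin was higher by 0.60 in isotonic medium, whereas its 7 partners had a median of 0.13. In sorbitol CCT5 was higher by 0.96 and the partners by a median of 0.57, with all 7 called. MED6 and MED10 of Mediator were higher by 0.44 and 1.08 in isotonic medium, and 25 other Mediator genes had a median of -0.27. ATP6V1D of the proton pump was higher by 0.16 and 0.82, and its 6 partners had medians of -0.34 and 0.23. Other complexes held partners that were called higher like the member in isotonic medium. CDK7 and CCNH, the partners of MNAT1 in the CDK-activating kinase, were higher by 0.32 and 0.38 there and by 0.39 and 0.61 in sorbitol, beside 0.50 and 0.72 for MNAT1. EIF2S3 differed by 0.65 and 0.77 and EIF2S2 by -0.10 and -0.70, beside 0.60 and 0.87 for EIF2S1. DGCR8, the partner of DROSHA, differed by 0.29 and -0.11, beside 0.31 and 0.45.

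The sorbitol comparison in WT cells asks whether the stretches respond to hyperosmotic medium. It shares the WT libraries with the comparison that chose them. The median log2 change was 0.00 on chromosome 5 and 0.01 on chromosome 14, against 0.04 over all genes. Of 153 members, 24 rose (11.4% of all genes did) and 21 fell (12.8%). In WNK2- cells the medians were 0.04 and 0.06 against 0.00 over all genes, with 19 members raised (8.25% of all genes) and 10 lowered (6.64%); the counts were 29 and 18 when only the WNK2- groups were fitted. The main counts are 15.7% and 13.7% of members in WT cells and 12.4% and 6.54% in WNK2- cells. Both genotypes called 12 members in the same direction and none in opposite directions.

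RHOJ, a small GTPase of endosomes and cell edges (ENSG00000126785, chromosome 14, 63204114 to 63293219), rose in both genotypes. RHOJ had normalised read counts of 356, 346, 479 and 458 in WT Ctr, 964, 1026, 1159 and 1025 in WT Sor, 729.6, 759.7, 785 and 818 in WNK2- Ctr and 2296, 1988, 2267 and 2238 in WNK2- Sor. The transfected cells gave 460.1, 453, 476 and 446 in isotonic medium (WNK2 trans Ctr) and 1180.5, 1512, 1417 and 1641 in sorbitol (WNK2 trans Sor). In each of the 3 cell groups every Sor library stood above every Ctr library. Sorbitol raised it by 1.35 on the log2 scale in WT cells (standard error 0.11, edgeR adjusted p = 2.33e-09) and by 1.51 in WNK2- cells (0.11, 1.98e-10), and the difference between genotypes was 0.16 (0.15, 0.563). SPTB, the erythroid beta spectrin, rose in both, by 0.66 and 1.09 (edgeR adjusted p = 6.81e-05 and 2.3e-08). NKD2, RTN1, PRKCH and ARG2, which are scarcer and were named after their values were seen, also rose in both genotypes. NKD2 had 0 to 5 reads per library in WT Ctr and 8 to 20 in WT Sor.

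Of 10 members of the telomere, cell cycle and DNA repair list, 4 fell with sorbitol in WT cells (12.8% of all genes did) and 2 in WNK2- cells (6.64%), and none rose. DLGAP5, a kinetochore fibre protein (ENSG00000126787, chromosome 14, 55148112 to 55191678), went from 4465 ± 559.7 to 2216 ± 92.5 normalised reads in WT cells and from 4448 ± 144 to 3133 ± 422 in WNK2- cells. CDKN3, a phosphatase that acts on cyclin-dependent kinases, went from 1927 ± 272 to 1201 ± 110.5 and from 2555 ± 123 to 1923 ± 128. Both fell in both genotypes, with log2 changes of -1.01 and -0.51 for DLGAP5 and of -0.68 and -0.41 for CDKN3 (edgeR adjusted p = 9.87e-08, 0.000738, 1.28e-05 and 0.00315). Against WNK2 trans Ctr in place of WT Ctr, neither passed the threshold in WT cells. ERH, a small nuclear protein, also fell in WT cells, with a log2 change of -0.75 (edgeR adjusted p = 0.000782).

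Rises in WT cells were led, among members whose mean log2 CPM reached 3, by UBE2QL1, RHOJ, SEMA5A and ZBTB1. UBE2QL1, a ubiquitin-conjugating enzyme, had 43.4, 40.3, 58.4 and 95.6 normalised reads in WT Ctr and 175, 178, 246 and 212 in WT Sor. In WNK2- Ctr it had 279, 265, 323 and 254 and in WNK2- Sor 427, 409, 372 and 385. SEMA5A, a guidance protein of axons and vessels, had 95.3, 79.3, 124 and 151 in WT Ctr and 286, 294, 273 and 261 in WT Sor. It had 189, 290.0, 317 and 287 in WNK2- Ctr and 219, 238, 250.2 and 267 in WNK2- Sor, where the groups overlap. The changes in WT cells were 1.78 and 1.31 on the log2 scale (edgeR adjusted p = 7.74e-07 and 0.0001). In WNK2- cells UBE2QL1 changed by 0.51 and SEMA5A by -0.16 (edgeR adjusted p = 0.0526 and 0.682), and GALNT16 fell, with a change of -1.25 (edgeR adjusted p = 2.46e-08).

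The number of falls in WT cells depended on a few choices. It was 13 without WT Sor replicate 3, 11 when only the 2 groups were fitted, and 11 with no filter on low counts. With the libraries labelled WNK2 trans Ctr as the isotonic control, an alternative added after their WNK2 counts had been seen, 23 members rose, 11 of them also called with WT Ctr, and 11 fell, 5 of them shared. RHOJ, SAMD4A and SPTB rose against either control. TRIP13, with -0.74 against WT Ctr, differed by 0.16 from WNK2 trans Ctr. DLGAP5 (-0.20), CDKN3 (-0.15), SEMA5A (0.24) and UBE2QL1 (0.42) no longer passed the threshold.

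The interaction asks whether the response to sorbitol differed between genotypes, which is the same as asking whether the WNK2- minus WT difference changed with the medium. Its median over members was 0.08 on chromosome 5 and 0.02 on chromosome 14, against -0.01 over all genes. It is built from the libraries of the 2 comparisons that chose the stretches, so its calls are given as a description. It was positive past the threshold for 7 members (4.58%, beside 3.99% of all genes) and negative for 7 (4.58%, beside 4.66%). Both shares are near those over all genes. The negative ones were SEMA5A, UBE2QL1, ZDHHC11, GALNT16, SAMD4A, PLEKHG4B and MIDEAS, and the positive ones ZNF622, DLGAP5, TRIP13, ATP6V1D, GCH1, RETREG1 and CGRRF1. ZDHHC11 has a near-identical neighbour, ZDHHC11B, and its counts are uncertain for that reason. GCH1, the first enzyme of tetrahydrobiopterin synthesis, had 647 ± 98.7 and 581 ± 19.1 normalised reads in WT cells and 558 ± 35.5 and 805 ± 61.1 in WNK2- cells, with an interaction of 0.68 (standard error 0.14, edgeR adjusted p = 0.00204). SAMD4A, a regulator of mRNA translation, had 753 ± 127 and 1497 ± 61.7 against 2577 ± 141 and 3045 ± 276, an interaction of -0.75 (0.18, edgeR adjusted p = 0.00818). With WNK2 trans Ctr as the isotonic control, 2 members were positive and 5 negative, and GALNT16 was the single call shared with the WT Ctr version. The count of positive members was 13 by DESeq2 and also 13 when the compared groups were fitted alone. It was 4 with no filter on low counts, and 4 without WT Ctr replicate 2, WNK2- Ctr replicate 2, WNK2- Ctr replicate 4 or WNK2- Sor replicate 3.

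**Figure D5:**
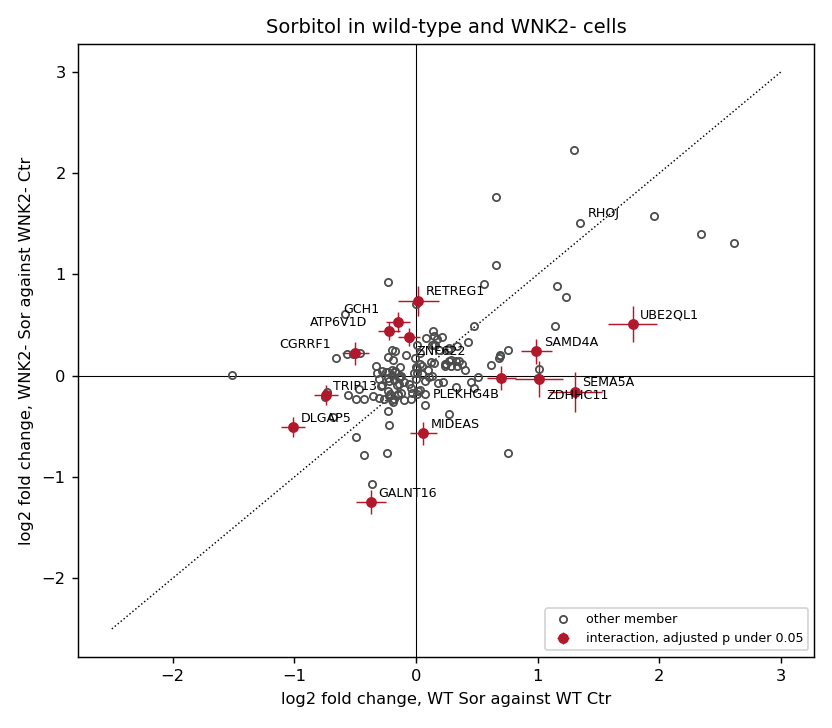
Log2 fold change with sorbitol in WT cells (horizontal axis) and in WNK2- cells (vertical axis) for the 153 tested members; filled points with standard errors are the 14 members whose interaction passed the threshold, and the dotted line marks equal change. Most members lie close to the origin, RHOJ lies near the line at 1.35 and 1.51, and SEMA5A and UBE2QL1 lie to the right of the line.

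The last comparison sets transfected against untransfected WT cells, which share genotype. In isotonic medium the medians of members were -0.11 on chromosome 5 and -0.01 on chromosome 14, against 0.01 over all genes. There 10 members were higher (5.57% of all genes) and 25 lower (6.98%); the lower count was 16 without WNK2 trans Ctr replicate 4. When only these 2 groups were fitted, 5 were higher and 11 lower. In sorbitol the medians were 0.11 and 0.13, against 0.01 over all genes, with 40 members higher (16.1% of all genes) and 16 lower (15.5%). On chromosome 5, 19 of 49 tested members were higher in WNK2 trans Sor than in WT Sor and 8 lower, and on chromosome 14, 21 of 104 were higher and 8 lower. The medians of WNK2- against WT cells were 0.97 and 0.50 in sorbitol.

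Several members named by the size of their change differed in opposite directions in the 2 media. TRIP13 differed between WNK2 trans Ctr and WT Ctr by -0.90 and between WNK2 trans Sor and WT Sor by 0.85 on the log2 scale (edgeR adjusted p = 5.53e-07 and 4.04e-07). DPF3 differed by -0.95 and 1.04 (edgeR adjusted p = 2.29e-05 and 8.76e-07), with 156 ± 39.4 normalised reads in WNK2 trans Ctr and 879 ± 99.2 in WNK2 trans Sor. BASP1 differed by -0.89 and 0.81 (edgeR adjusted p = 0.000171 and 0.000193). SMOC1 went the other way, with 1.03 and -0.92 (edgeR adjusted p = 9.19e-07 and 1.52e-06), and so did CDH6, PLEKHG4B and UBE2QL1. In the same libraries WNK2 reads were lower than in WT Ctr in isotonic medium and higher than in WT Sor in sorbitol, and the part of this in these values was not tested. An exchange of the labels of the 2 isotonic groups would turn the isotonic signs. Each of these members would then differ in the same direction in both media, so a reversal between media rests on those labels.

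TRIO was higher in WNK2 trans Sor than in WT Sor by 0.74 (standard error 0.14, edgeR adjusted p = 0.000254), and its WNK2 trans Sor libraries still lay below all WNK2- libraries. PDZD2 was higher by 1.02 there, FUT8 by 0.75 and RHOJ by 0.46 (edgeR adjusted p = 5.9e-05, 2.78e-06 and 0.00142). HSPA2, a chaperone of the HSP70 family, was lower, with a difference of -0.72, as was GALNT16, also with -0.72 (edgeR adjusted p = 4.55e-07 and 3.82e-05). SLC12A7 differed by -0.24 in sorbitol and -0.27 in isotonic medium, neither past the threshold (edgeR adjusted p = 0.15 and 0.166).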

How the data were processed

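Poly(A) RNA libraries of 24 samples were analysed. The authors deposited raw read counts per Ensembl gene, 1 file per library, with no normalisation and no pooling. The submitters' processing notes name FastQC 0.11.9, HISAT2 2.2.1, HTSeq 2.0.2 and DESeq2 1.38.3 with GRCh38, while the strand setting and annotation release are not given in the sources used here. Gene positions came from GENCODE annotation of GRCh38. Counts were fitted with edgeR 4.0.16 in R 4.3.3: genes were filtered by filterByExpr (minimum count 10), scaled by TMM and fitted with 6 group means by the quasi-likelihood test, with Benjamini-Hochberg adjustment over 16600 genes at 0.05. Normalised read counts are counts scaled by TMM library size. Standard errors were derived from the test, as the absolute log2 fold change over the square root of its F statistic. DESeq2 1.42.0 was an alternative, as were other scalings, filters, a replicate block and leaving out each library. The members and gene lists were chosen with earlier results of these data known. Genes were named by size of difference per stretch, by position at the ends, by a fixed list, and by the 4 largest rises and falls of each other comparison among members with mean log2 CPM of at least 3. Of the members, 48 overlap another coding gene, and their counts may be shared. Some genes that this rule names are not reported here. WNK2- against WT differences are descriptions because they chose the stretches. The scripts were tested on simulated data.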

Additional observations from a re-analysis of the deposited data

Results flagged for a closer look

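Among 150 groups of 4 libraries, formed by 23 members shown by library and by the index of each stretch, 9 held a library far from its 3 companions; chance flags about 1 in 20 groups. The gap of that library to its nearest companion, as a share of the group's range, was 0.899 for MYO10 and 0.949 for ANKRD33B, both in WNK2 trans Ctr replicate 3. It was 0.95 for OTULINL and 0.879 for SNAPC1 in WT Ctr replicate 2, 1.0 for TERT in WNK2 trans Ctr replicate 4, and 0.857 for ACTN1 in WNK2 trans Sor replicate 2. It was 0.885 for DACT1 in WNK2- Sor replicate 4, 0.845 for CDKN3 in WNK2- Ctr replicate 1 and 1.0 for CDH6 in WNK2- Ctr replicate 3. The TERT and CDH6 flags each rest on 1 read.

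For 14 members the response to sorbitol differed between WNK2- and WT cells by edgeR's test of the interaction. That test uses the libraries that chose the stretches. The log2 value of the interaction was -1.47 for SEMA5A, -1.27 for UBE2QL1, -1.04 for ZDHHC11, -0.88 for GALNT16, -0.75 for SAMD4A, -0.73 for PLEKHG4B and -0.63 for MIDEAS. It was 0.45 for ZNF622, 0.51 for DLGAP5, 0.55 for TRIP13, 0.66 for ATP6V1D, 0.68 for GCH1, 0.72 for RETREG1 and 0.72 for CGRRF1. With WNK2 trans Ctr in place of WT Ctr, GALNT16 alone of these was still called.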

How the results depend on the processing

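The chromosome medians of WNK2- against WT cells kept their direction in every alternative run; leaving out 1 library gave 0.90 to 1.01 on chromosome 5 and 0.34 to 0.55 on chromosome 14, and DESeq2 gave 1.02 for chromosome 5 in sorbitol. With DESeq2 the positive interactions numbered 13, and with no filter on low counts 4, while the WT falls with sorbitol numbered 11 with no filter. With the compared groups fitted alone, the WT falls numbered 11, the WNK2- rises 29 and falls 18, the members higher in WNK2 trans Ctr 5 and lower 11, and the positive interactions 13. Leaving out 1 library moved the WT falls between 13 and 24, the members lower in WNK2 trans Ctr between 16 and 30, and the positive interactions between 4 and 9. With WNK2 trans Ctr as the isotonic control, chosen after seeing the data, the WT falls numbered 11 and the positive interactions 2. There the sign of called values turned for ADAMTS16 (WNK2- against control 0.01, sorbitol 0.10), PLEKHG4B (sorbitol -0.05, interaction 0.03) and UBE2QL1 (interaction 0.08). It also turned for called values of SMOC1 (sorbitol -0.26), TRIP13 (sorbitol 0.16, interaction -0.35), CDH6 (sorbitol -0.36) and DLGAP5 (interaction -0.30). The causes were not tested. Of 12254 values of named genes under alternatives, 11919 kept their call or lack of it, 214 lost the call and 111 gained it. The other 10 were values called in the main fit whose sign turned. Sign changes of values not called in the main fit were not counted. A missing adjusted p was otherwise counted as kept. Counts of members stayed within 1.5 times under the other scalings.

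Same-numbered libraries did not deviate together: of 24 pairs, 3 had a correlation over 0.1, with a range of -0.265 to 0.223. A replicate block gave 89 members higher and 11 lower in WNK2- Ctr, 95 and 16 in WNK2- Sor, 22 and 18 for sorbitol in WT, 17 and 10 in WNK2- cells, 11 and 24 for transfection in isotonic medium, 38 and 17 in sorbitol, and 6 and 7 for the interaction.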
